A study of Mus musculus with 9 samples.

Results

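Transcripts of the Hippo-YAP pathway were followed in 5 hepatocellular carcinoma (HCC) samples and 4 control liver samples of mice, through 10 genes chosen by name: the coactivators Yap1 and Wwtr1, the DNA-binding partners Tead1 and Tead4, the kinases Lats1 and Lats2, the regulators Amotl2 and Ajuba, and the targets Ankrd1 and Axl. A gene was a member when the platform annotation gave a probe set of the array that single symbol. All 10 were found, on 11 probe sets, among 19938 genes tested. Control livers came from monotransgenic Rosa26-lsl-NICD mice, in which the Notch1 intracellular domain (NICD) lies silent in the Rosa26 locus behind a stop cassette. The tumours came from bitransgenic AFP-Cre/Rosa26-lsl-NICD mice, where a Cre named for alpha-fetoprotein (AFP), a gene of fetal liver, removes the stop. The labels do not describe the sequence that drives this Cre. Every animal therefore carried the NICD allele, all were 6 to 12 months old, and all were of a hybrid 129 x C57BL/6 background. Total RNA of tumour or liver tissue was hybridised to Affymetrix Mouse Gene 1.0 ST arrays, and the values below are RMA intensities (background-corrected, quantile-normalised probe set summaries) on the log2 scale.

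The Hippo pathway is a kinase cascade that restrains organ growth. The upstream MST kinases (Stk3 and Stk4) activate LATS1 and LATS2, which phosphorylate the coactivators YAP (Yap1) and TAZ (Wwtr1) and keep them out of the nucleus. Unphosphorylated YAP and TAZ bind the TEAD transcription factors and switch on genes such as Ankrd1, Ccn1 and Ccn2, and in mouse liver an active YAP drives enlargement of the organ, a biliary or progenitor-like state of hepatocytes and tumours. This control acts largely on the protein, by phosphorylation, location and stability, which an array of transcripts does not measure.

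None of the 10 members passed an adjusted p of 0.05 between HCC and control liver in limma (Benjamini-Hochberg over all 19938 genes), in which 0.858% of all genes were higher and 0.160% lower. At an unadjusted p below 0.05, 3 members were higher and none lower, against 10.5% and 9.85% of all genes. The 3 were Ajuba, Tead1 and Ankrd1. Ajuba had the smallest adjusted p (0.0591) and was the only member with all HCC arrays above all control arrays, which held for 5.63% of all genes; the opposite held for 3.86% of genes and for no member. The members' median log2 change was 0.12, against -0.033 over all genes.

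**Figure D1:**
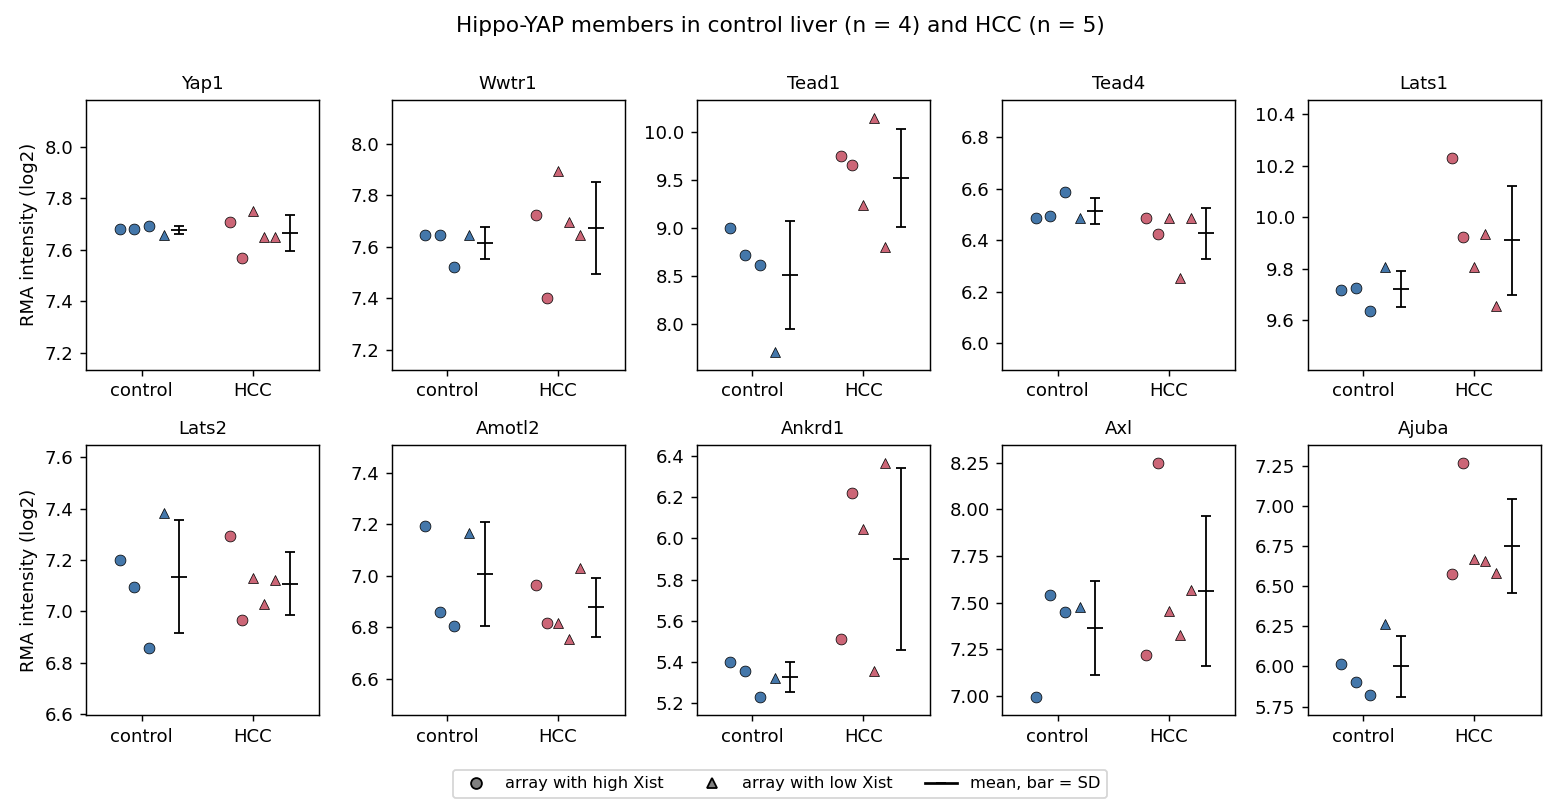
RMA intensity on the log2 scale of the 10 members on each of the 4 control and 5 HCC arrays, with the mean and SD beside the points; circles are arrays with high Xist and triangles arrays with low Xist. The groups stand apart for Ajuba, while Yap1 lies between 7.57 and 7.75 on all 9 arrays.

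The labels and depth of the series bear on these values as follows. Array medians lay between 91.5 and 101 linear intensity units. Hepatocyte markers were high in both groups but lower in HCC. The summed intensity of 9 measured markers such as Alb and Ttr was 16.27 to 16.36 (log2) in control liver. In HCC it was 15.82 to 16.24, without overlap. All 9 changes were negative, and 3 were lower at an unadjusted p below 0.05 (9.85% of all genes). For 3, all HCC arrays lay below all controls (3.86% of all genes). After adjustment 1, Pck1, was lower (adjusted p = 0.0460), against 0.160% of all genes. Xist, a transcript of the inactive X chromosome, was 10.68 to 11.76 on control arrays 1 to 3 and HCC arrays 1 and 2 and 4.83 to 5.10 on control array 4 and HCC arrays 3 to 5, that is, high on 3 of 4 control and 2 of 5 HCC arrays, so sex is not balanced between the groups. The mean of 3 Y-linked transcripts was 4.32 to 4.70 on the arrays with high Xist and 7.81 to 8.53 on those with low Xist, apart from 5.79 on HCC array 4, which was low for Xist too. These are bulk tissues, in which fewer cells of a type and less RNA per cell cannot be told apart. Nothing in the labels says that every array is a separate animal, and the p-values therefore reflect only variation among arrays, part of which may be technical.

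The coactivator transcripts were nearly level across the arrays. Yap1 measured 7.68, 7.68, 7.69 and 7.66 on control arrays 1 to 4 and 7.71, 7.57, 7.75, 7.65 and 7.65 on HCC arrays 1 to 5. The HCC values lie on both sides of the control values, and the groups overlap. The log2 change was -0.013 (SE 0.061, 95% interval -0.15 to 0.12, adjusted p = 0.925); its sign turned under 2 of 18 alternative settings. Wwtr1, which encodes TAZ, measured 7.65, 7.65, 7.52 and 7.65 in control liver and 7.72, 7.40, 7.89, 7.70 and 7.65 in HCC. Its lowest and highest values were both on tumour arrays, HCC 2 and HCC 3. Its log2 change was 0.056 (95% interval -0.16 to 0.28, adjusted p = 0.775).

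The changes of Yap1 and Wwtr1 were compared through their difference on each array, which asks whether a pair of paralogs moved unequally and not which is more abundant. Yap1 minus Wwtr1 was 0.062 ± 0.074 (SD, n = 4) in control liver and -0.0074 ± 0.11 (SD, n = 5) in HCC (exact permutation test over all splits of the arrays, two-sided p = 0.286, adjusted over the 3 paralog pairs compared, 0.286). The smallest p that this design can give is 0.00794. Several of these readings were identical across arrays: Wwtr1 had 1 value on 4 arrays and Tead4 1 value on 5, to 4 decimals of the linear intensity. Of all genes, 25.8% had 3 or more identical arrays, and 4.27% had 5 or more. The SD of Wwtr1 and Tead4 in control liver thus rests on few distinct values.

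Tead1, the TEAD factor with the larger difference of the pair, had the largest mean change of the members. On its brighter probe set it measured 9.01, 8.72, 8.62 and 7.71 on control arrays 1 to 4 and 9.76, 9.66, 9.24, 10.15 and 8.81 on HCC arrays 1 to 5. Of the HCC arrays, 1 to 4 lay above every control and HCC array 5 lay below control array 1, so the groups overlap through that tumour. The mean was 8.51 ± 0.56 in control liver and 9.52 ± 0.51 in HCC, a log2 change of 1.01 (2.01-fold, SE 0.32, 95% interval 0.30 to 1.72, adjusted p = 0.136). The other probe set of Tead1 had its lowest value on the same control array 4 (6.40, against 7.38 to 7.42 on the other controls) and measured 7.38 to 8.12 in HCC, a log2 change of 0.70 (adjusted p = 0.162).

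Control array 4 is the control with low Xist, and Tead1 was therefore compared within arrays of like Xist level. Among the arrays with high Xist, the 3 controls lay between 8.62 and 9.01 and the 2 HCC arrays at 9.66 and 9.76, a difference of the means of 0.93. Among those with low Xist, the control was at 7.71 and the 3 HCC arrays lay between 8.81 and 10.15, a difference of 1.69. Tead1 was thus higher in HCC within both sets, each with too few arrays for a test of its own. With the mean of 3 Y-linked transcripts as a covariate in limma, the log2 change was 1.13 and passed (adjusted p = 0.0301). With Xist as the covariate it was 1.22 (adjusted p = 0.0710). HCC array 4, the highest for Tead1 on the brighter probe set, had low Xist but a Y-linked mean of 5.79. That value lay between those of the high-Xist arrays and those of the other low-Xist arrays. Across 19 alternatives the log2 change of Tead1 ran from 0.70 to 1.22 and the adjusted p from 0.0301 to 0.259.

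Tead4, the other TEAD factor among the members, lay between 6.49 and 6.59 in control liver and between 6.25 and 6.49 in HCC. Its log2 change was -0.087 (95% interval -0.25 to 0.073, adjusted p = 0.511). Tead1 minus Tead4 was 2.00 ± 0.55 (SD, n = 4) in control liver and 3.10 ± 0.59 (SD, n = 5) in HCC, and the change of this difference, 1.10, had an exact permutation p of 0.0317 and an adjusted p over the 3 pairs of 0.0952. The unequal movement of Tead1 and Tead4 therefore did not pass after adjustment. Of the remaining TEAD factors, Tead2 measured 6.19 ± 0.13 and 6.48 ± 0.26 (adjusted p = 0.263; 0.0475 with Xist as a covariate) and Tead3 6.96 ± 0.25 and 7.12 ± 0.13 (adjusted p = 0.501).

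**Figure D2:**
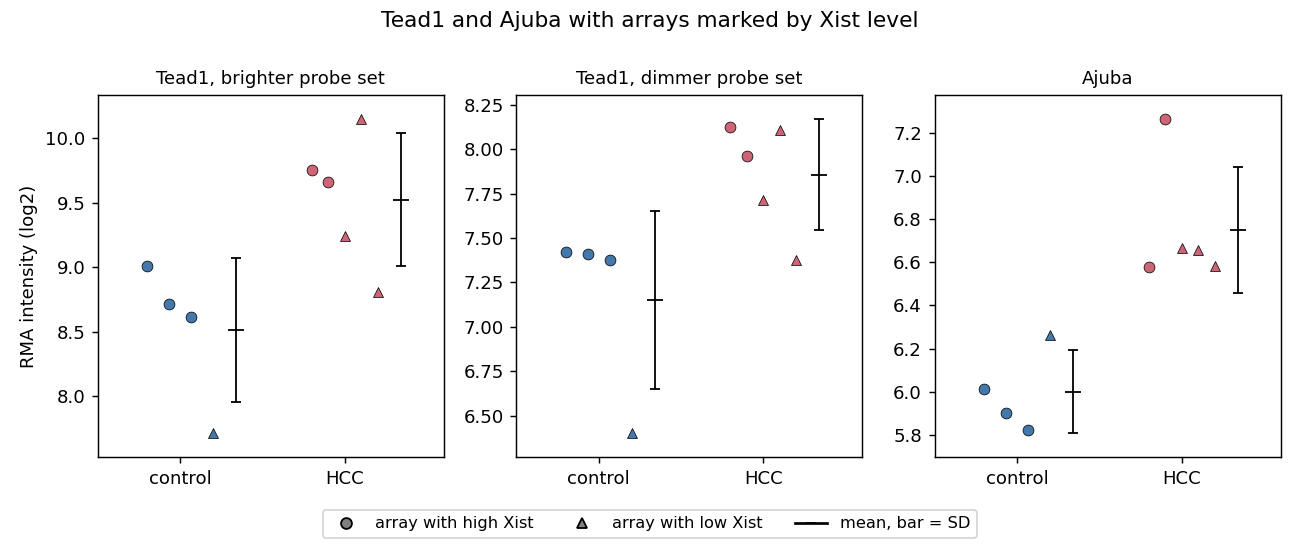
RMA intensity on the log2 scale of both Tead1 probe sets and of Ajuba on each control (n = 4) and HCC (n = 5) array, with mean and SD; circles are arrays with high Xist and triangles arrays with low Xist. Control array 4, the control triangle, is lowest for both Tead1 probe sets and highest of the controls for Ajuba.

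Lats1 and Lats2 encode the kinases that inactivate YAP and TAZ. Lats1 measured 9.72, 9.73, 9.63 and 9.81 in control liver and 10.23, 9.92, 9.81, 9.93 and 9.66 in HCC. The highest values were on HCC arrays 1, 2 and 4, and HCC array 5 lay within the control range. The log2 change was 0.19 (SE 0.11, 95% interval -0.059 to 0.44, adjusted p = 0.358), and the difference of the means was 0.38 among arrays with high Xist and -0.0068 among those with low Xist. Lats2 ran from 6.86 to 7.38 in control liver and from 6.97 to 7.29 in HCC, wholly inside the control range, with a log2 change of -0.026 (95% interval -0.28 to 0.23, adjusted p = 0.919). Without control array 4 that change was 0.058. Lats1 minus Lats2 was 2.59 ± 0.15 (SD, n = 4) and 2.80 ± 0.19 (SD, n = 5), with an exact permutation p of 0.103 and an adjusted p over the 3 pairs of 0.155.

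Amotl2 encodes an angiomotin-family scaffold that holds YAP at junctions and is itself a YAP target. It measured 7.19, 6.86, 6.80 and 7.17 in control liver and 6.97, 6.82, 6.82, 6.76 and 7.03 in HCC. Both groups cover much the same range, and the log2 change was -0.13 (SE 0.11, 95% interval -0.37 to 0.11, adjusted p = 0.517).

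Ajuba encodes a LIM-domain protein of cell junctions that binds and restrains LATS kinases. It measured 6.01, 5.90, 5.82 and 6.26 on control arrays 1 to 4 and 6.58, 7.26, 6.67, 6.66 and 6.58 on HCC arrays 1 to 5. All 5 tumours lay above the highest control, HCC array 2 by the widest margin. By mean intensity Ajuba lay at percentile 39.3 of all genes, and a filter on low means left it out. The mean was 6.00 ± 0.19 in control liver and 6.75 ± 0.29 in HCC, a log2 change of 0.75 (1.68-fold, SE 0.16, 95% interval 0.40 to 1.10, unadjusted p = 9.27e-04, adjusted p = 0.0591), just short of the threshold. It passed in limma without HCC array 5 (adjusted p = 0.0355) and with array weights (0.0257), and over all 17 alternatives the adjusted p ran from 0.0257 to 0.172 and the log2 change from 0.62 to 0.84. Among arrays with high Xist the difference of the means was 1.01 (3 controls, 2 HCC), and among those with low Xist 0.37 (1 control, 3 HCC). The related LIM proteins of the same family measured 6.71 ± 0.15 and 6.73 ± 0.10 for Limd1 (adjusted p = 0.906) and 7.28 ± 0.12 and 7.39 ± 0.04 for Wtip (adjusted p = 0.402); whether Ajuba changed more than these was not tested.

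The genes of the fit most like Ajuba in pattern, by the root mean square difference over the 9 arrays after subtraction of each gene's control mean, were Agrn (0.15), Nme7 (0.16) and Slc41a1 (0.17). Agrn, which encodes the basement membrane proteoglycan agrin, measured 6.56 ± 0.15 and 7.21 ± 0.27 (adjusted p = 0.0655), and like Ajuba it had its highest value, 7.65, on HCC array 2. The genes most like Yap1 were D430041D05Rik, Olfr788 and Pex26, which differed from it by a root mean square of 0.019, 0.020 and 0.025. Olfr788 encodes an olfactory receptor. Like Yap1, all of these had their lowest value on HCC array 2, and Olfr788 and D430041D05Rik shared its highest array, HCC 3. Wwtr1, a member, had the same lowest and highest arrays. The nearest genes were picked for likeness over these same arrays, so extremes shared with Ajuba or Yap1 follow largely from that choice. Yap1 itself varied little (SD 0.015 in control liver and 0.069 in HCC).

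The promoters of Ankrd1, Ajuba, Amotl2 and Axl are shown because Ankrd1, Amotl2 and Axl are known YAP targets and Ajuba was the member nearest the threshold, and each holds the core sequence bound by TEAD factors. The 250 bases before the gene start were read from RefSeq (GRCm38.p6) on the strand of the gene, with GGAATG or its reverse complement CATTCC in capitals.
Ankrd1 (chr19:36119845-36120094, minus strand): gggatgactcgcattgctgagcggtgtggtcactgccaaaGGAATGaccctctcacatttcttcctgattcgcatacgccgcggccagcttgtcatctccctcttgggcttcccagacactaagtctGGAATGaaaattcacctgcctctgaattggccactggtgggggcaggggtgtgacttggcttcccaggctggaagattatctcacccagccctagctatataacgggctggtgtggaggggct
Ajuba (chr14:54577662-54577911, minus strand): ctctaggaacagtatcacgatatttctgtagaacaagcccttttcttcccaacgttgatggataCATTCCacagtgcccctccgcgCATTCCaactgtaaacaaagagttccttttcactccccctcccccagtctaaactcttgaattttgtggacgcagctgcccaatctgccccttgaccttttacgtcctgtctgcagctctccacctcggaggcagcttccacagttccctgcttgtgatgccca
Amotl2 (chr9:102717554-102717803, plus strand): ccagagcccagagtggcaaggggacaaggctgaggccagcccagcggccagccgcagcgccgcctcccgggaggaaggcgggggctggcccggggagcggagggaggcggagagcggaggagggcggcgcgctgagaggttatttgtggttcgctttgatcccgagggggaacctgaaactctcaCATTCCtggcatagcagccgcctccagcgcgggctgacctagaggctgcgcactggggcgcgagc
Axl (chr7:25788734-25788983, minus strand): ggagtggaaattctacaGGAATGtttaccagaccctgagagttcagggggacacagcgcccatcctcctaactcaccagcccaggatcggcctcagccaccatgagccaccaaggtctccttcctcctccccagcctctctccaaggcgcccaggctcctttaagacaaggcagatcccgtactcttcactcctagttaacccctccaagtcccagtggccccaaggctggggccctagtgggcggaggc

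Ankrd1 and Ajuba each held 2 matches, starting 210 and 123 bases before the gene start in Ankrd1 and 186 and 164 in Ajuba. Amotl2 held 1, starting 65 bases before its gene start, and Axl 1, starting 233 bases before. Single matches were also found before Yap1 and Wwtr1, the coactivators themselves, in these windows of 26 bases.
Yap1: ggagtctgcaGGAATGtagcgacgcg
Wwtr1: taaactcaaaGGAATGcagataggcg
Of 8 members with an entry, 6 held GGAATG on either strand, and of their 10 promoters 7 did, where the overlapping Wwtr1 promoters share 1 site. Lats1 and Lats2 held none in this window. Of all 32851 promoters of the same length 12.6% held it, as did 3 of the 17 promoters of the wider YAP target list. TGGGAA, the core of the site of the Notch partner RBPJ, was found on either strand before Ajuba and Ankrd1 (21.6% of all promoters), and TGANTCA, the AP-1 site, before no member (6.75%). TGGGAA can overlap GGAATG by 4 bases. These matches describe sequence in one short window and no binding was measured.

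Ankrd1 encodes a nuclear ankyrin-repeat protein and is among the most widely used readouts of YAP activity. It measured 5.40, 5.36, 5.23 and 5.32 on control arrays 1 to 4 and 5.51, 6.22, 6.05, 5.36 and 6.36 on HCC arrays 1 to 5. The tumours split: HCC arrays 2, 3 and 5 stood well above the controls, HCC array 1 slightly above, and HCC array 4 lay among them. By mean intensity Ankrd1 lay low on the arrays, at percentile 21.1 of all genes, and a filter on low means left it out. The mean was 5.33 ± 0.07 and 5.90 ± 0.44, a log2 change of 0.57 (1.49-fold, SE 0.20, 95% interval 0.11 to 1.04, adjusted p = 0.171; 0.0463 with array weights). The difference was 0.54 among arrays with high Xist and 0.60 among those with low Xist. Hepatic stellate and fibroblast markers, of which all 10 listed were measured, had a summed log2 level of 11.97 to 12.25 in control liver and 11.11 to 12.25 in HCC, lowest on HCC array 1 and none of them at 0. Dcn was the brightest of them on every array and so the largest single part of that sum. It measured 9.64 on HCC array 1 and 11.34 to 11.74 in control liver. Of the 10 markers 7 had a positive and 3 a negative change, and none passed after adjustment. At an unadjusted p below 0.05, 4 were higher and 1, Lrat, lower (10.5% and 9.85% of all genes). Acta2 had a log2 change of 1.09 and Lum of 0.88, against -1.19 for Lrat, -0.53 for Dcn and -0.28 for Des. The part of these cells in the Ankrd1 value was not tested.

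Axl encodes a receptor tyrosine kinase that YAP can induce and that macrophages and vessels also express. It measured 6.99, 7.54, 7.45 and 7.48 in control liver and 7.22, 8.25, 7.46, 7.32 and 7.57 in HCC. HCC array 2 alone stood above the others, and the remaining tumours lay within or close to the control range. The log2 change was 0.20 (SE 0.21, 95% interval -0.27 to 0.67, adjusted p = 0.620) and 0.027 without HCC array 2. It was 0.40 among arrays with high Xist and -0.027 among those with low Xist. The 11 listed macrophage symbols name 10 genes, as Emr1 is an older symbol of Adgre1. All 10 were measured, none at 0. Their summed log2 level was 11.76 to 12.92 in control liver and 11.06 to 13.42 in HCC, with 13.42 on HCC array 2. Of the 10, 9 had a negative change and none passed after adjustment. The summed log2 level of lymphocyte markers (9 of 10 measured, 4 with a positive change, none past the adjusted threshold) was also highest there, at 10.92 against 9.66 to 10.28 on the other HCC arrays. The part of either cell type in the Axl value was not tested.

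The wider pathway was read from lists of further Hippo genes that are not members. Of 28 measured regulators and cofactors, 1 was higher in HCC and none lower after adjustment (0.858% and 0.160% of all genes). At an unadjusted p below 0.05 there were 7 higher and 1 lower (10.5% and 9.85% of all genes). Their median log2 change was 0.13, against -0.033 over all genes. The gene that rose was Map4k4, a MAP4 kinase that can activate LATS alongside the MST kinases: it measured 7.31, 7.72, 7.30 and 7.18 in control liver and 8.84, 9.23, 8.88, 8.61 and 8.01 in HCC. All 5 tumours lay above all controls, HCC array 5 by the least. The log2 change was 1.34 (2.52-fold, SE 0.22, adjusted p = 0.0392). It lost the call when any of control arrays 1 to 4 or HCC arrays 1 to 4 was left out (adjusted p 0.0586 to 0.138, log2 change 1.21 to 1.45) and kept it without HCC array 5 (0.00348).

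Among the other kinases and adaptors, Mob1b, a LATS cofactor, measured 9.54 ± 0.25 and 9.88 ± 0.15 (adjusted p = 0.190). Taok2, a kinase upstream of MST, measured 7.41 ± 0.03 and 7.07 ± 0.21 (adjusted p = 0.131). For Taok2 all HCC arrays lay below all controls (3.86% of all genes). Of the 15 measured upstream regulators and scaffolds none passed. The FERM protein Frmd6 measured 7.18 ± 0.16 and 7.63 ± 0.21 (adjusted p = 0.107), the casein kinase Csnk1e, which marks YAP for degradation, 7.10 ± 0.06 and 7.38 ± 0.17 (adjusted p = 0.145), and the scaffold Rassf1 6.62 ± 0.05 and 6.81 ± 0.11 (adjusted p = 0.191). For Frmd6 and Csnk1e all HCC arrays lay above all controls (5.63% of all genes). The tumour suppressor Nf2, which recruits LATS to the membrane, measured 8.16 ± 0.07 and 7.98 ± 0.24 (adjusted p = 0.425). Of the VGLL proteins, which compete with YAP for TEAD or assist TEAD, Vgll3 measured 6.28 ± 0.21 and 6.56 ± 0.13 (adjusted p = 0.210) and Vgll4 7.45 ± 0.20 and 8.00 ± 0.68 (adjusted p = 0.356).

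**Figure D3:**
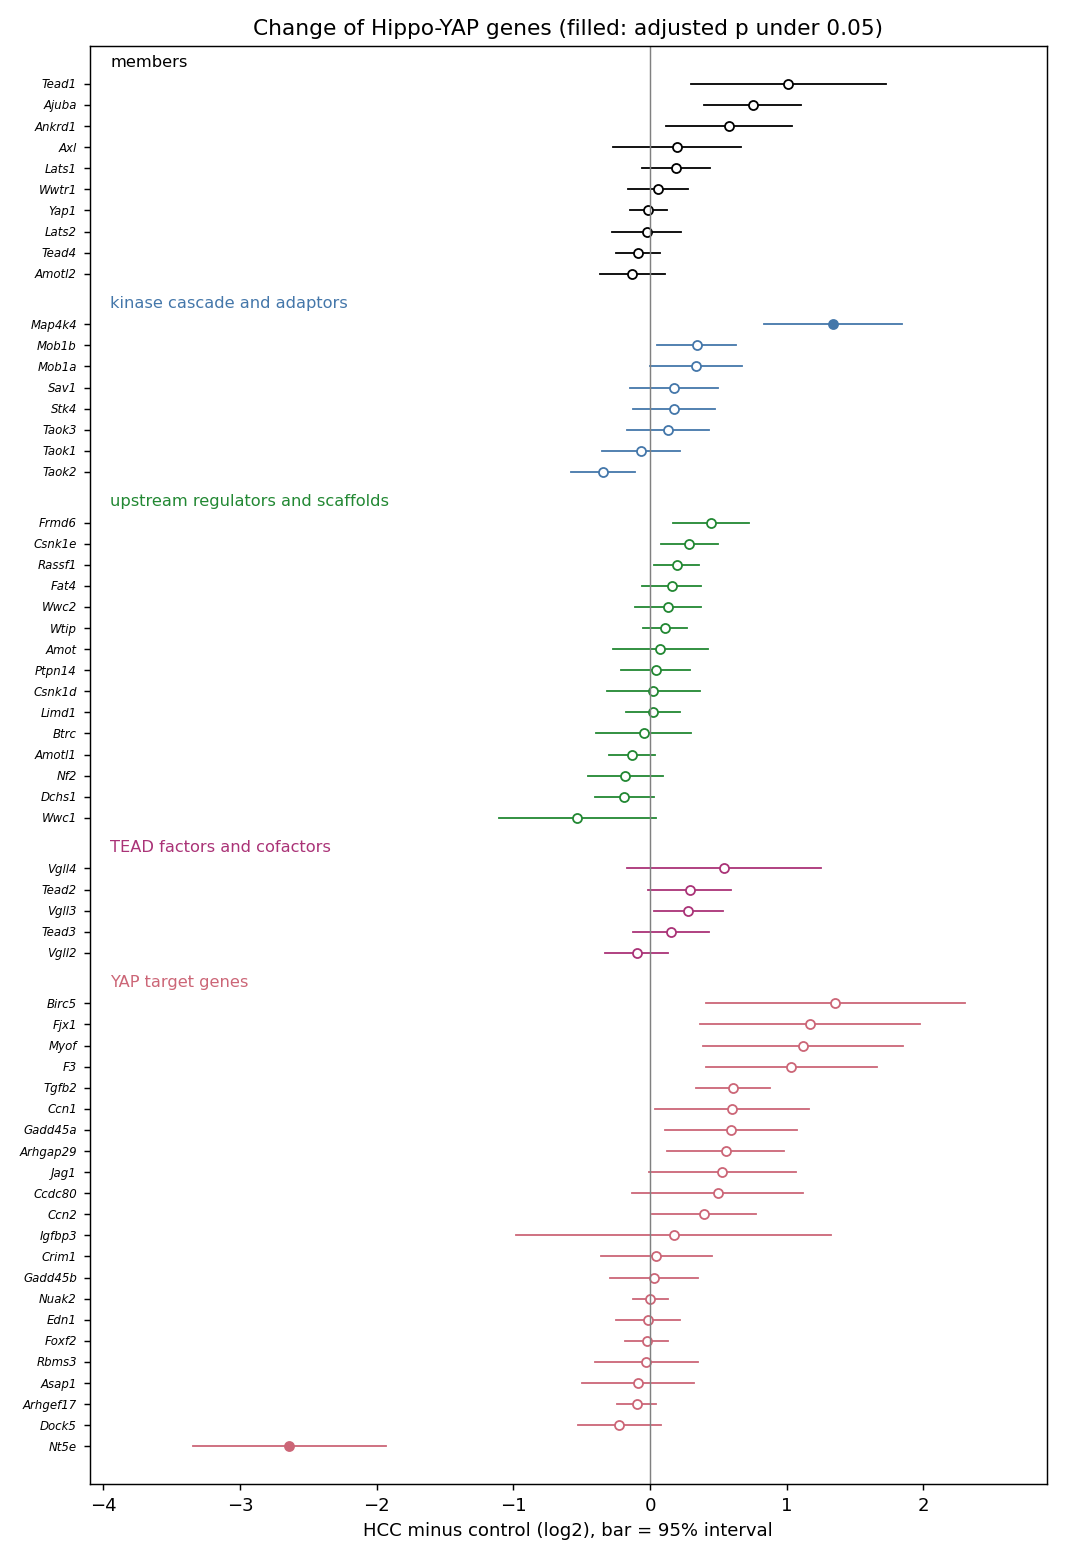
Log2 change (HCC minus control, 4 and 5 arrays) with its 95% interval for the 10 members, 28 further pathway genes and 22 YAP target genes; filled points passed an adjusted p of 0.05. Map4k4 (1.34) and Nt5e (-2.64) are the filled points, and no member is filled.

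Genes known as YAP targets in other settings were read in the same fit. Of 22 measured targets none was higher and 1, Nt5e, was lower after adjustment (0.858% and 0.160% of all genes); at an unadjusted p below 0.05, 9 were higher (10.5% of all genes) and 1 lower (9.85% of all genes). The tumours stood wholly above the controls for 6 targets (5.63% of all genes), Birc5, F3, Fjx1, Jag1, Myof and Tgfb2, and wholly below for 1, Nt5e (3.86%). The median log2 change was 0.28, against -0.033 over all genes, and 15 changes were positive and 7 negative.

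Tgfb2, a growth factor of the TGF-beta family, was nearest to the threshold among the higher targets. It measured 6.31, 6.26, 6.37 and 6.43 in control liver and 6.67, 6.99, 7.30, 6.81 and 6.99 in HCC, with no overlap (log2 change 0.61, SE 0.12, adjusted p = 0.0530; it passed under 4 of 17 alternatives). F3, which encodes tissue factor, measured 7.00, 6.14, 6.58 and 6.12 in control liver and 8.30, 7.58, 7.40, 7.09 and 7.09 in HCC, again with no overlap. Its log2 change was 1.03 (2.04-fold, SE 0.28, adjusted p = 0.104; 0.0331 to 0.0425 under 3 alternatives). Nt5e, the ectonucleotidase CD73, fell, from 7.98 to 9.40 in control liver to 5.76 to 6.90 in HCC (log2 change -2.64, adjusted p = 0.0155; 0.0554 to 0.0737 without control array 1, 2 or 3).

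The matricellular proteins Ccn1 (Cyr61) and Ccn2 (Ctgf), the standard YAP targets, were chosen for mention after their values were seen. Ccn1 measured 8.17, 7.96, 7.60 and 8.19 in control liver and 9.12, 8.19, 9.11, 8.08 and 8.40 in HCC. HCC arrays 1 and 3 stood clear of the controls and HCC array 4 lay among them (log2 change 0.60, 95% interval 0.037 to 1.16, adjusted p = 0.223). Ccn2 measured 7.67 to 8.05 in control liver and 8.75, 8.43, 8.04, 8.04 and 8.05 in HCC, where HCC arrays 1 and 2 were high (log2 change 0.40, 95% interval 0.017 to 0.78, adjusted p = 0.232). Ccn1 and Ccn2 were both highest on HCC array 1 and Ankrd1 on HCC array 5, and on HCC array 4 all of these lay within the control range.

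The targets were not equally high on all tumours. Of the 22 targets, 12 had their highest tumour value on HCC array 1 (Arhgef17 tied with HCC array 2), 4 on HCC array 2, 4 on HCC array 3, 2 on HCC array 5 and none on HCC array 4. The median target stood 0.27, 0.23, 0.22, 0.062 and 0.18 above its control mean on HCC arrays 1 to 5. On these arrays 13, 13, 11, 9 and 9 targets lay above all controls. The like counts over all genes were not made, so these do not show a trait of the targets. HCC array 1 also correlated least with the other tumours over all genes (mean r 0.959, against 0.963 to 0.971). Birc5, an inhibitor of apoptosis that also acts in mitosis, measured 6.76 to 7.13 in control liver and 9.62, 7.81, 7.67, 9.09 and 7.58 in HCC (adjusted p = 0.134). Myof, which encodes the membrane-repair protein myoferlin, measured 6.80 ± 0.26 and 7.92 ± 0.69 (adjusted p = 0.119), and Fjx1, which encodes a secreted protein, 5.72 ± 0.47 and 6.89 ± 0.69 (adjusted p = 0.131). The Notch ligand Jag1 measured 5.86 to 6.19 in control liver and 7.48 on HCC array 1, against 6.26 to 6.42 on the other tumours (adjusted p = 0.251).

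Of 10 listed cholangiocyte markers 7 were measured, all with a positive change, none at 0 and none past the adjusted threshold. Their summed log2 level was 8.99 to 9.28 in control liver and 9.45 to 11.58 in HCC, highest on HCC array 1, where Cftr measured 10.85 against 5.57 to 6.82 on the other tumours. The markers were divided: Krt19 and Pkhd1 were, like Cftr, highest on HCC array 1, and Krt7, Epcam, Cldn7 and Muc1 on HCC array 2. Krt7 was lowest of the tumours on HCC array 1, at 7.00. For 3 of the 7 markers all HCC arrays lay above all controls (5.63% of all genes). Of 10 listed proliferation markers 9 were measured, all with a positive change. After adjustment 2 were higher, Top2a and Mcm6 (0.858% of all genes). At an unadjusted p below 0.05, 8 were higher (10.5% of all genes). All HCC arrays lay above all controls for 6 (5.63% of all genes). The summed log2 level of these markers was 9.45 to 9.77 in control liver and 10.81 to 12.41 in HCC. It was highest on HCC array 1 and next on HCC array 4, the order seen for Birc5. Endothelial markers (10 of 10 measured) ran from 11.64 to 11.86 in control liver and from 10.73 to 11.85 in HCC. Of the 10, 7 had a negative and 3 a positive change, and none passed after adjustment. At an unadjusted p below 0.05 in limma, 3 were lower and none higher (9.85% and 10.5% of all genes). For 3, all HCC arrays lay below all controls (3.86% of all genes). The part of these cells in the target values was not tested.

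**Figure D4:**
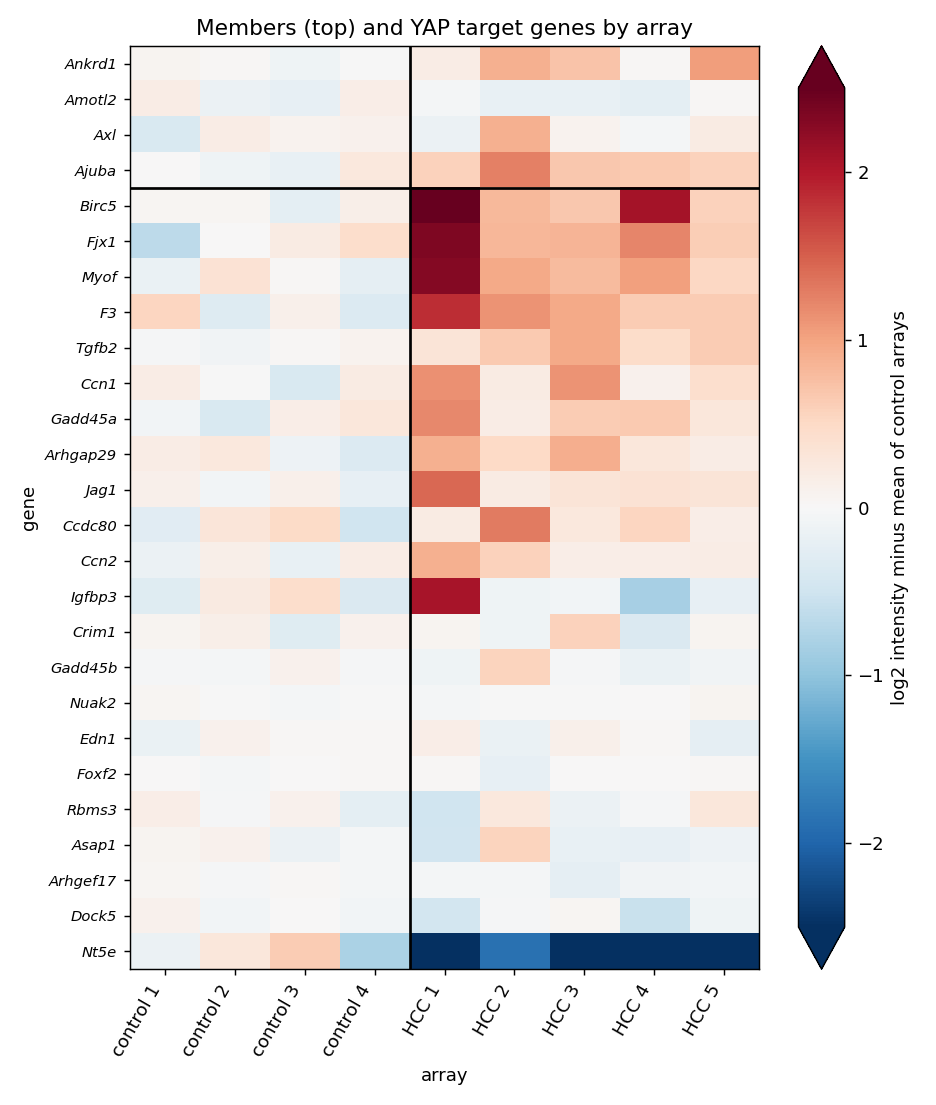
Log2 intensity minus the mean of the 4 control arrays for Ankrd1, Amotl2, Axl and Ajuba (above the line) and 22 YAP target genes (below it) on each array; red is higher and blue lower, and values beyond the colour scale are drawn at its end. HCC array 1 holds the highest tumour value of 12 of the 22 targets, and Nt5e is low on all 5 tumours. The like count over all genes was not made.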

How the data were processed

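Total RNA of 4 samples of control liver and 5 of HCC was measured, 1 array per sample. The deposited intensity values were made with RMA, per the submitters' processing notes, and handled in GenePattern and R, per the labels of the series; no source used here gives the build, tool versions or scanning batches. The values ran from 3.91 to 21468, a linear scale, and were transformed to log2 without a floor. Detection calls were not used, so a low intensity does not show absence. Of 35512 probe sets, 21789 had 1 symbol in the platform annotation; symbols were updated by Entrez identifier (21698 matched), and the brightest probe set per gene was kept. HCC and control were compared in limma 3.58.1 (R 4.3.3, lmFit, eBayes, group as the only term, two-sided). A run on simulated data with independent errors checked the size of the estimates and is no check of error rates in these arrays. Paralog differences were tested by exact permutation. Marker levels are log2 of summed linear intensities. Tables and plots used Python 3.11.15, pandas 2.3.3 and matplotlib 3.10.9.

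The members and lists were chosen with earlier results of these data known. Named genes were the 10 members, the 3 of each pathway list with the smallest adjusted p, and the 3 genes nearest in pattern to Ajuba and Yap1; others are examples chosen after their values were seen. Some listed genes were not analysed here. Alternatives were a filter on low means, repeated quantile normalisation, array medians, trended and robust eBayes, array weights, the mean of probe sets, a replicate block, Xist or Y-linked covariates and leaving out each array. Promoter sequences are RefSeq's; Tead1 and Tead4 had no entry in the table used here.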

Additional observations from a re-analysis of the deposited data

Results flagged for a closer look

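In 7 of 58 groups of arrays examined, 1 array lay farther from the others than Dixon's 95% limit allows; chance gives about 1 in 20. Wwtr1 was 7.52 on control array 3, where the other 3 controls shared 1 value. Tead4 was 6.59 on control array 3 and 6.25 on HCC array 4, again beside identical values on other arrays. Axl was 6.99 on control array 1. Ajuba was 7.26 on HCC array 2, above the other tumours. Taok2 was 7.36 on control array 3. The summed macrophage level was 13.42 on HCC array 2, the array with the highest Axl.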

How the results depend on the processing

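Over 178 alternative values of the 10 members, 169 kept their direction and side of the threshold. The filter on low means and the trended and robust eBayes cannot alter a log2 change. Nor can the mean of probe sets for members with 1 probe set. The 169 therefore include values whose direction was fixed in advance. Members with a large adjusted p were also likely to stay uncalled. The change of Yap1 turned to 0.0027 with array weights and 0.012 without HCC array 2 (-0.034 to 0.012 over single arrays left out), and that of Lats2 to 0.043 with array weights, 0.058 without control array 4 and 0.0098 without HCC array 2 (-0.12 to 0.058 over single arrays left out). Among members 2 were called higher with array weights (Ajuba and Ankrd1) and 1 with the Y-linked covariate (Tead1); leaving out single arrays gave 0 to 1, and none was lower under any alternative. Of the wider genes 2 were higher with the Xist covariate (Map4k4 and Tead2), and 0 to 1 when single arrays were left out. Of the targets 2 were higher with array weights (Tgfb2 and F3), 1 with the Xist covariate (F3) and 1 with the Y-linked covariate (Tgfb2); leaving out single arrays gave 0 to 1 higher and 0 to 1 lower. Over all genes, 171 were higher and 32 lower: 503 and 246 with array weights, 321 and 124 with the Y-linked covariate, 285 and 93 with the filter on low means, and 108 and 11 with array medians subtracted, while repeated quantile normalisation gave 50 lower. Leaving out single arrays gave 10 to 631 higher and 0 to 556 lower. The causes were not tested.

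With the replicate block, 259 genes were higher and 220 lower, and 1 target was higher (F3). HCC array 5 has no partner and drops out of that fit. Same-numbered arrays correlated at -0.0040, 0.32, -0.029 and -0.083 in their deviations from the group means, so no consistent pairing by number was seen. For number 2, HCC array 2 was the best match of control array 2. Whether the numbers pair the arrays is not given by the labels. Paralog differences kept their direction under 12 alternatives each, with adjusted p from 0.0714 to 0.589. The number of arrays limits the precision.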
